A study of Rattus norvegicus with 10 samples.

Results

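Heat shock proteins and chaperones were followed in the abdominal aorta of 2 inbred rat strains, through 10 listed genes: Hspa1a, Hsph1, Hspb1, Dnajb1, Hspa8, Hspa5, Hsp90ab1, Hspd1, Hspe1 and Cryab. Every probe set annotated to one of these symbols was taken, whatever its signal. This gave 11 probe sets that carry 1 symbol, for 9 of the 10 genes, out of 15866 probe sets tested and 10411 genes with a probe set of 1 symbol. A further 2 probe sets carry a pair of symbols, Hspa1b with Hspa1a and Haus8l2 with Hspa8, and are named by both symbols and counted apart from the 11. Hspa8 was measured only through its shared probe set. All 13 probe sets gave signals above the background level on all 10 arrays.

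The study compared untreated BN (Brown Norway) and LOU rats, with 5 Affymetrix 3′ expression arrays per strain and total RNA labelled as biotinylated cRNA. The labels give an age of 5 weeks for each array, the growth notes speak of rats kept for at most 18 weeks, and sex is not given. The extraction notes name thoracic as well as abdominal aorta, whereas each array is labelled abdominal. Nothing in the labels says that each array comes from a separate rat, so p-values measure only the spread between arrays, which may be technical in part. The series title names the genetic basis of arterial and renal phenotypes of the BN rat, and the strain effect is the comparison that the design allows.

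Chaperones bind unfolded protein and help it to fold, or hold it until it can be refolded or degraded. When unfolded protein accumulates in the cytosol, heat shock factor HSF1 binds repeats of a short unit in the promoters of HSP70, HSP110, small heat shock and J-domain genes and raises their transcription. The endoplasmic reticulum and mitochondria have their own chaperones and their own stress signalling. In smooth muscle, the small heat shock proteins also bind actin and desmin filaments.

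RefSeq promoter entries of the GRCr8 assembly, which was made from a BN rat, were matched for 9 of the 10 genes. The search covered the 250 bases before each start site. The inverted pair of heat shock units, GAANNTTC or TTCNNGAA, each of which reads the same on both strands, was found in 6 of the 9 promoters: Dnajb1, Hspa8, Hspb1, Hspd1, Hspe1 and Hsph1. Of all 33469 promoters, 13.5% held it. Hspa1a, Hsp90ab1 and Hspa5 had an entry without this pair. Units outside the window, or with other letters, would have been missed. A run of 3 units, in which both pairs overlap, was found in 4 of the 9 (Hspa8, Hspd1, Hspe1 and Hsph1) and in 0.663% of all promoters. The ER stress element, CCAAT and CCACG with 9 letters between them, searched on both strands, was found in Hspa5 alone among the 9 and in 0.0657% of all promoters. The TATAAA motif, searched on the gene's strand only, was in none of the 9 windows and in 8.06% of all promoters. These letter matches describe the sequence and are not evidence of binding.

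The stretches below hold those matches, apart from a further Hsph1 pair at −105 to −98 from the start site, and are shown 5′ to 3′ on each gene's strand, because the genes that carry them had different patterns over the arrays. Capitals mark the heat shock units, or in Hspa5 the ER stress element. Hsph1 is at chr12:10427312-10427364 on the plus strand, Hspb1 at chr12:26432383-26432450 on the minus strand, and Dnajb1 at chr19:41431142-41431172 on the minus strand. Hspa8 has a run near its start site at chr8:50080439-50080491 and another at chr8:50080281-50080333, both on the plus strand. Hspe1 and Hspd1 are transcribed away from each other from start sites 290 bases apart, and the stretch at chr9:64084256-64084285, on the plus strand of Hspe1, lies in both promoter entries. Hspa5 is at chr3:38452953-38453011 on the plus strand.
Hsph1: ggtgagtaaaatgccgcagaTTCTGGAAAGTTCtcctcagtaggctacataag
Hspb1: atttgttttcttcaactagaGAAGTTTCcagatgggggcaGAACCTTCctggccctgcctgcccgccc
Dnajb1: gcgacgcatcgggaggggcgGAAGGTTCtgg
Hspa8 near: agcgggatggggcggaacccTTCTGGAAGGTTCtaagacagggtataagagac
Hspa8 far: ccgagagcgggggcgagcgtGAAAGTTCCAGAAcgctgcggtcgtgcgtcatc
Hspe1 and Hspd1: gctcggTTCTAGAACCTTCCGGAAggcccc
Hspa5: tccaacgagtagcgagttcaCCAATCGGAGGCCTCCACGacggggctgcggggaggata

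Over the whole arrays, median signals were 97.4 to 105 and between 69.7% and 81.9% of probe sets lay above background. The limma test with Benjamini-Hochberg adjustment called 125 of 15866 probe sets at an adjusted p under 0.05, which is 0.788%, with 39 higher and 86 lower in BN. All 6 smooth muscle markers were above background on all arrays, with summed signals of 35984.9 to 52025.4 in BN and 32588.5 to 46221.7 in LOU. Markers of other cell types were also present. The 7 striated muscle markers summed to 3242.8 to 5993.8 in BN and 2035.7 to 3392.5 in LOU, with 4 of the 7 above background on all arrays and Myh4 on none. The 5 fibroblast markers, all above background on all arrays, summed to 7399.0 to 9766.8 in BN and 8988.4 to 16831.8 in LOU. LOU array 1 stood apart: its summed signal was the highest of all arrays for macrophage, lymphocyte, erythroid and adipocyte markers and the lowest for smooth muscle. BN array 3 had the highest Schwann marker sum, 4996.5, against 2088.9 to 3518.8 on the other arrays. Each of the 13 chaperone differences below is therefore also given without LOU array 1 and without both arrays.

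None of the 11 chaperone probe sets passed the limma test after adjustment. At an unadjusted p under 0.05, 5 of the 11 were higher in BN and none lower, where 5.16% of all probe sets were higher and 8.09% lower at that level. These 5 were Hspa1a, Hsph1, Hspb1, Cryab and 1 of the 2 Hsp90ab1 probe sets. The log2 difference, BN minus LOU, was above 0 for 9 of the 11, with a median of 0.34 over the 11. Of all probe sets 46.5% were above 0, with a median of −0.03. Among the 794 probe sets with a mean signal of at least 1000, 54.4% were above 0, with a median of 0.04. Signals in BN lay above every LOU signal for 2 of the 11, where this held for 1.41% of all probe sets and for 2.77% of the 794 with a mean signal of at least 1000. Fewer cells that express a gene and less RNA per cell cannot be told apart in RNA from whole aorta.

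The inducible HSP70 gene Hspa1a encodes the chaperone that binds exposed stretches of unfolded protein in the cytosol. Its signals in BN arrays 1 to 5 were 6269.2, 9307.3, 6700.2, 7658.7 and 7875.3. In LOU arrays 1 to 5 they were 966.1, 2887.5, 4871.4, 6141.0 and 5735.3. Every BN array lay above every LOU array, although LOU array 4 was close to the lowest BN array, and LOU array 1 lay far below the other LOU arrays. The mean was 7562 ± 1180 in BN and 4120 ± 2164 in LOU (SD, n = 5 each). BN exceeded LOU by a log2 difference of 1.12 (SE 0.46, 95% interval 0.11 to 2.14), 2.18-fold, with a limma adjusted p of 0.326. Without LOU array 1 it was 0.67, and without that array and BN array 3 it was 0.71.

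The probe set shared by Hspa1b and Hspa1a, which encode near-identical HSP70 proteins, followed the same pattern. BN signals were 7115.3, 9253.2, 7527.5, 8468.2 and 8039.1 in array order. LOU signals were 1713.8, 4355.7, 5653.8, 6214.3 and 6427.8. The strains did not overlap here either, and LOU array 1 was again the lowest of all. The log2 difference was 0.86 (SE 0.33), with a limma adjusted p of 0.301, and it was 0.52 without LOU array 1 and 0.55 without BN array 3 as well. Signal from the 2 genes cannot be told apart in this probe set, and the Hspa1a values of the single-symbol probe set are uncertain for the same reason.

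Hsph1 encodes HSP110, which releases nucleotide from HSP70 and so lets it let go of its client. Its BN signals were 1339.2, 2044.1, 1971.6, 1938.7 and 2239.9. Its LOU signals were 369.5, 798.8, 679.8, 1665.3 and 1321.2. The strains overlapped only because BN array 1 lay below LOU array 4. The mean was 1907 ± 338 in BN and 967 ± 520 in LOU, a log2 difference of 1.15 (SE 0.37, 95% interval 0.33 to 1.97). This was the largest difference among the 13 probe sets, 2.21-fold, with a limma adjusted p of 0.211. Without LOU array 1 it was 0.85, and without both arrays 0.83.

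Hspa8 encodes the constitutive cytosolic HSP70. The probe set shared with Haus8l2 gave BN signals of 8503.9, 9525.2, 8548.1, 9991.9 and 10244.9. LOU signals were 5686.0, 6818.2, 6944.3, 8953.1 and 8063.2. LOU array 4 exceeded the lowest 2 BN arrays, and the other LOU arrays lay below all of BN. This gave a log2 difference of 0.37 (SE 0.14), 1.30-fold, with a limma adjusted p of 0.296. It was 0.29 without LOU array 1 and 0.32 without both arrays.

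Hspb1 encodes HSP27, a small heat shock protein that holds unfolded proteins and binds actin. Its BN signals were 11034.8, 14852.7, 12257.8, 13608.0 and 13547.9. Its LOU signals were 3016.9, 6018.0, 8785.1, 11358.7 and 7975.9. Only LOU array 4 reached into the BN range, just above BN array 1, and LOU array 1 was lowest. The means were 13060 ± 1458 and 7431 ± 3124, a log2 difference of 0.94 (SE 0.31, 95% interval 0.24 to 1.63). The limma adjusted p was 0.227, and the difference was 0.64 without LOU array 1 and 0.66 without BN array 3 as well.

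Cryab, the alpha B-crystallin gene, encodes the small heat shock protein that binds desmin in muscle. Signals in BN were 1820.4, 2521.1, 2118.8, 2008.2 and 2435.3. Signals in LOU were 850.5, 1294.7, 1537.4, 1857.4 and 1597.1. As for Hspb1, the ranges met only where LOU array 4 passed BN array 1. The log2 difference was 0.65 (SE 0.21, 95% interval 0.18 to 1.11), 1.57-fold, with a limma adjusted p of 0.211, and 0.47 without LOU array 1 and 0.48 without both arrays. Small heat shock proteins are also abundant in striated muscle, and the striated muscle marker sum lay above every LOU array on 4 of the 5 BN arrays. The single markers were divided. Log2 differences were 3.73 for Mb, 1.175 for Myh1, 0.79 for Myl1 and 0.34 for Ckm. They were −0.06 for Acta1, −0.20 for Tnnt3 and −0.43 for Myh4, which was above background on no array. The part of striated muscle in the Hspb1 and Cryab differences was not tested.

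Hsp90ab1, the constitutive cytosolic HSP90 that matures kinases and receptors, was read by a pair of probe sets. Probe set 1375336_at gave BN signals of 2918.5, 3131.7, 3861.3, 3032.0 and 2951.5, and LOU signals of 2299.2, 2396.9, 2270.4, 2538.9 and 2195.8. All BN arrays lay above all LOU arrays, with a log2 difference of 0.44 (SE 0.12, 95% interval 0.18 to 0.69) and the smallest limma adjusted p of the 11, 0.138. Probe set 1375335_at gave BN signals of 3189.1, 3137.3, 2866.3, 2300.8 and 2192.8, and LOU signals of 1894.3, 2084.1, 1932.2, 2791.2 and 2065.6. Here the strains overlapped, through LOU array 4 above BN arrays 4 and 5. The log2 difference was 0.34 (95% interval −0.02 to 0.70), with a limma adjusted p of 0.401. Without LOU array 1 the differences of 1375336_at and 1375335_at were 0.43 and 0.30, and without both arrays 0.36 and 0.28. The deviations of the pair from their strain means correlated with r = 0.39 over the 10 arrays, and the probe sets of this gene differ in which arrays are high.

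**Figure D1:**
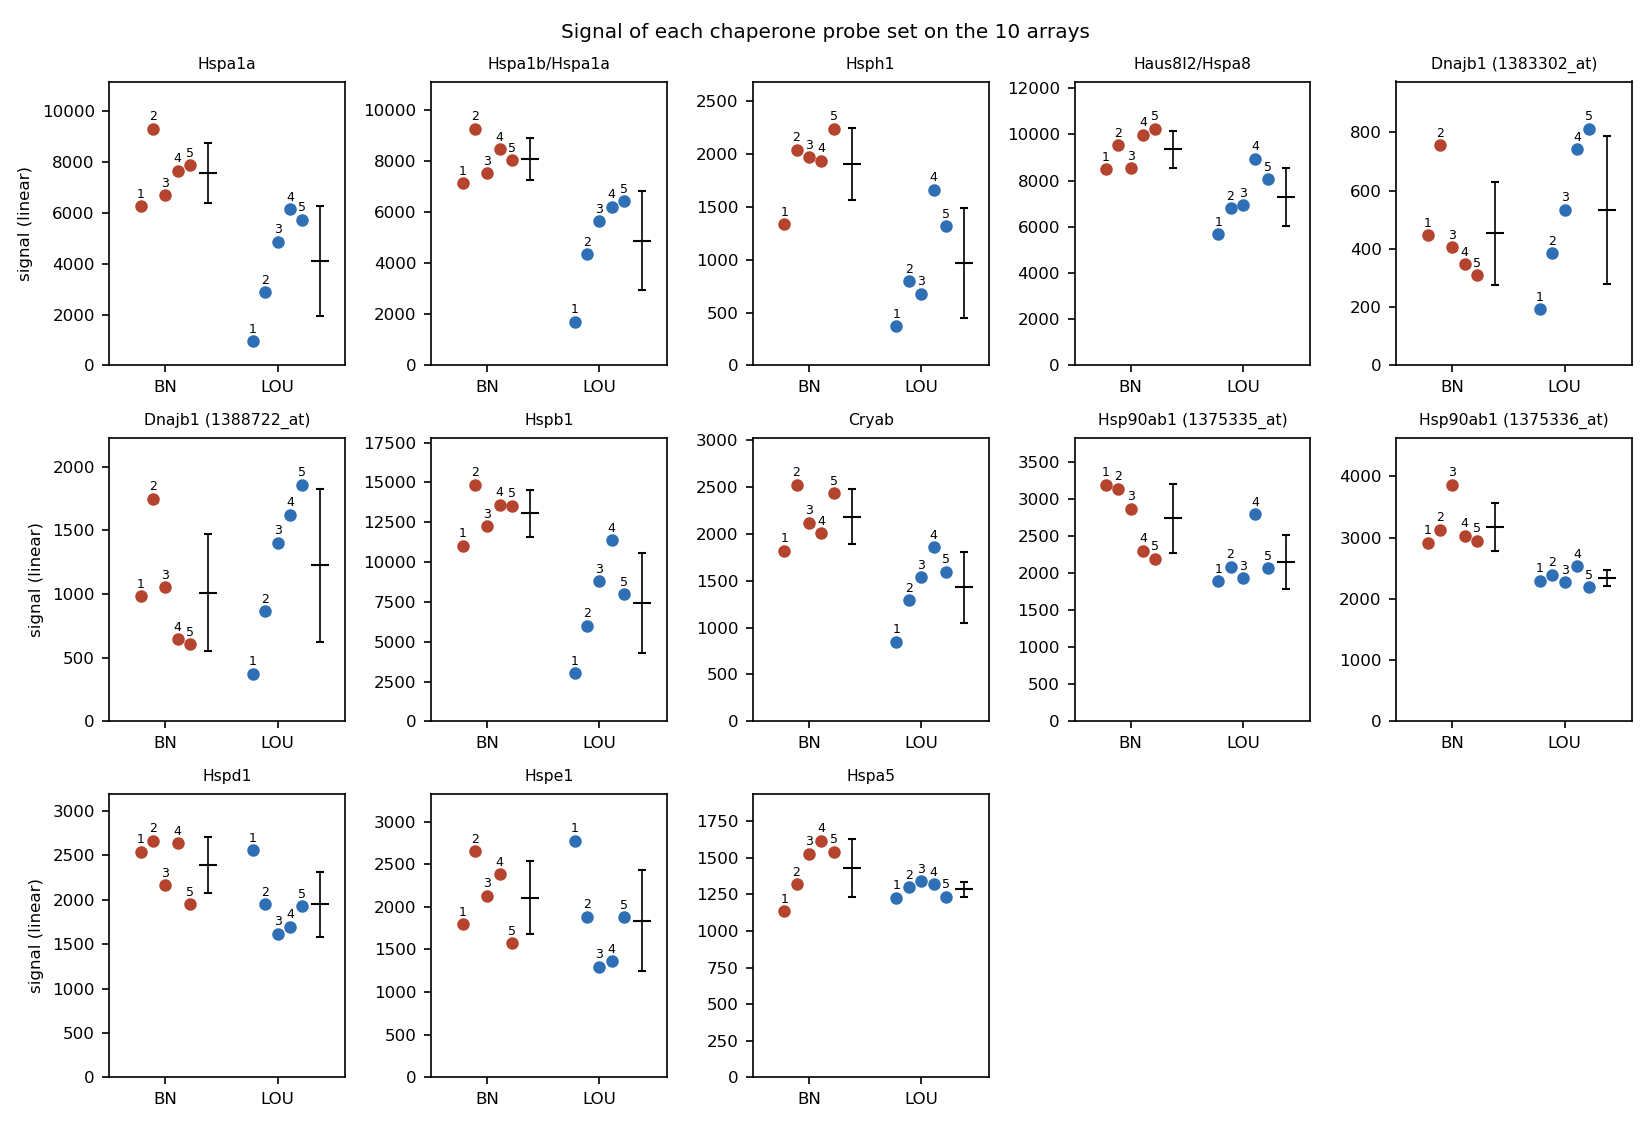
Signal of each chaperone probe set on each array (linear scale, arbitrary units), with BN and LOU arrays as points labelled by array number and the strain mean ± SD in black. For Hspa1a all 5 BN arrays lie above all 5 LOU arrays, and LOU array 1, at 966.1, is the lowest point.

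Dnajb1 encodes HSP40, the J-domain protein that hands clients to HSP70 and stimulates its ATPase. Probe set 1388722_at gave BN signals of 985.3, 1748.1, 1055.9, 646.6 and 605.4, and LOU signals of 373.4, 863.2, 1402.0, 1623.3 and 1856.4. The LOU range, 4.97-fold, held the whole BN range, 2.89-fold, with LOU array 5 highest and LOU array 1 lowest of all. Probe set 1383302_at ranged from 308.6 to 754.9 in BN and from 192.1 to 812.0 in LOU. The log2 differences were −0.19 (95% interval −1.20 to 0.83) and −0.14 (−1.03 to 0.75), with limma adjusted p of 0.891 and 0.910. These intervals are wide enough to hold the difference measured for Cryab. The sign turned without LOU array 5 for both, to 0.01 and 0.06, and without LOU array 4 for 1383302_at, to 0.02, and without LOU array 1 the values were −0.56 and −0.46. Without both arrays they were −0.61 and −0.44. Whether Dnajb1 differs from Hspa1a in its strain effect was not tested.

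The mitochondrial chaperonin genes Hspd1 (HSP60) and Hspe1 (HSP10) encode the folding chamber of the matrix and its lid. Hspd1 signals were 2541.4, 2664.1, 2162.7, 2637.6 and 1954.2 in BN, and 2555.7, 1950.6, 1617.6, 1695.9 and 1930.1 in LOU. Hspe1 signals were 1799.6, 2649.6, 2130.4, 2385.8 and 1577.5 in BN, and 2774.3, 1883.7, 1297.5, 1363.0 and 1880.0 in LOU. The strains overlapped for both, and LOU array 1, the lowest array for Hspa1a, Hsph1 and Hspb1, was the highest LOU array for both. The log2 differences were 0.30 (95% interval −0.05 to 0.65) for Hspd1 and 0.23 (−0.29 to 0.74) for Hspe1. Their limma adjusted p values were 0.449 and 0.711. Without LOU array 1 the differences were 0.41 and 0.39, and without both arrays 0.44 and 0.38. The Hspe1 difference was 0.12, 0.13 and 0.14 without LOU array 3, LOU array 4 and BN array 2.

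Hspa5 encodes BiP, the HSP70 of the endoplasmic reticulum and a target of the unfolded protein response. Its BN signals were 1138.2, 1321.8, 1529.5, 1616.8 and 1543.8. Its LOU signals were 1229.3, 1301.6, 1341.6, 1319.1 and 1235.8. The LOU arrays lay close together inside the BN range. Between the strain means the log2 difference was 0.14 (SE 0.12, 95% interval −0.13 to 0.42), with a limma adjusted p of 0.661, and the difference was 0.22 without BN array 1, 0.13 without LOU array 1 and 0.10 without BN array 3 as well.

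**Figure D2:**
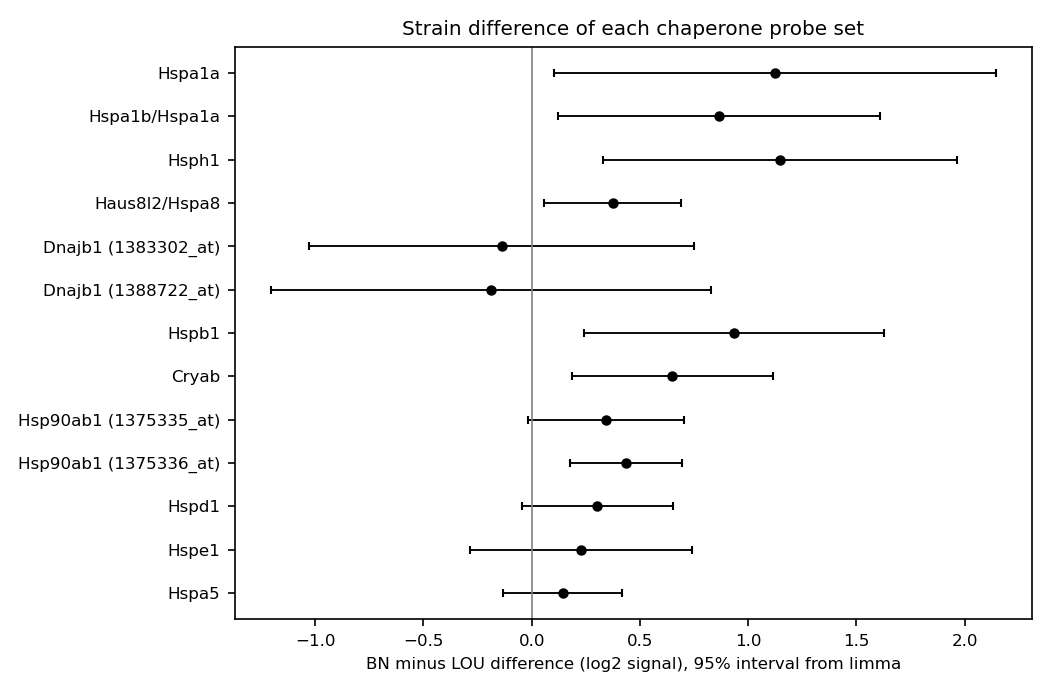
Log2 difference of each chaperone probe set, BN minus LOU, with its 95% interval from the limma fit (n = 5 arrays per strain). The Hsph1 and Hspa1a points lie farthest to the BN side, at 1.15 and 1.12, and the Dnajb1 intervals span 0.

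The signals of Hspa1a, Hsph1, Hspb1 and Cryab were spread more widely among the LOU arrays than among the BN arrays, a difference in spread that was not tested. The coefficient of variation of the Hspa1a signal was 52.5% in LOU and 15.6% in BN. It was 53.8% against 17.7% for Hsph1 and 42.0% against 11.2% for Hspb1. The highest LOU signal of Hspa1a was 6.36 times the lowest, and the highest BN signal was 1.48 times the lowest. For Hspa1a the lowest LOU signals were 966.1 on array 1 and 2887.5 on array 2. LOU array 1 was the lowest for all 4 of these genes and widens the LOU figures, which were not recomputed without it. Over the 13 probe sets, the SD of the log2 signal was larger in LOU for 10 and larger in BN for Hspa5 and both Hsp90ab1 probe sets. For Hspa5 the coefficient of variation was 3.92% in LOU and 13.7% in BN. The log2 SD was 0.17 in BN and 0.08 in LOU for Hsp90ab1 probe set 1375336_at, and 0.25 and 0.23 for 1375335_at. Over all probe sets the log2 SD was larger in LOU for 42.4%.

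A few arrays gave many of the extremes. LOU array 1 was the lowest of its strain on 10 of the 13 probe sets and the lowest of all arrays on 9. LOU array 4 was the highest of its strain on 7. Among BN arrays, array 2 was the highest of its strain on 8 and array 1 the lowest on 8. The number of the 11 probe sets with all BN arrays above all LOU arrays was 3 without LOU array 1, 5 without BN array 1 and 6 without LOU array 4. On LOU array 1 the macrophage marker sum was 1831.5, against 487.5 to 829.5 on the other arrays, with all 3 measured markers above background on all arrays. The lymphocyte sum was 405.4 there, against 54.5 to 119.8 elsewhere, with 0 of the 3 measured markers above background on all arrays. The part of these cells in the low chaperone signals of that array was not tested.

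**Figure D3:**
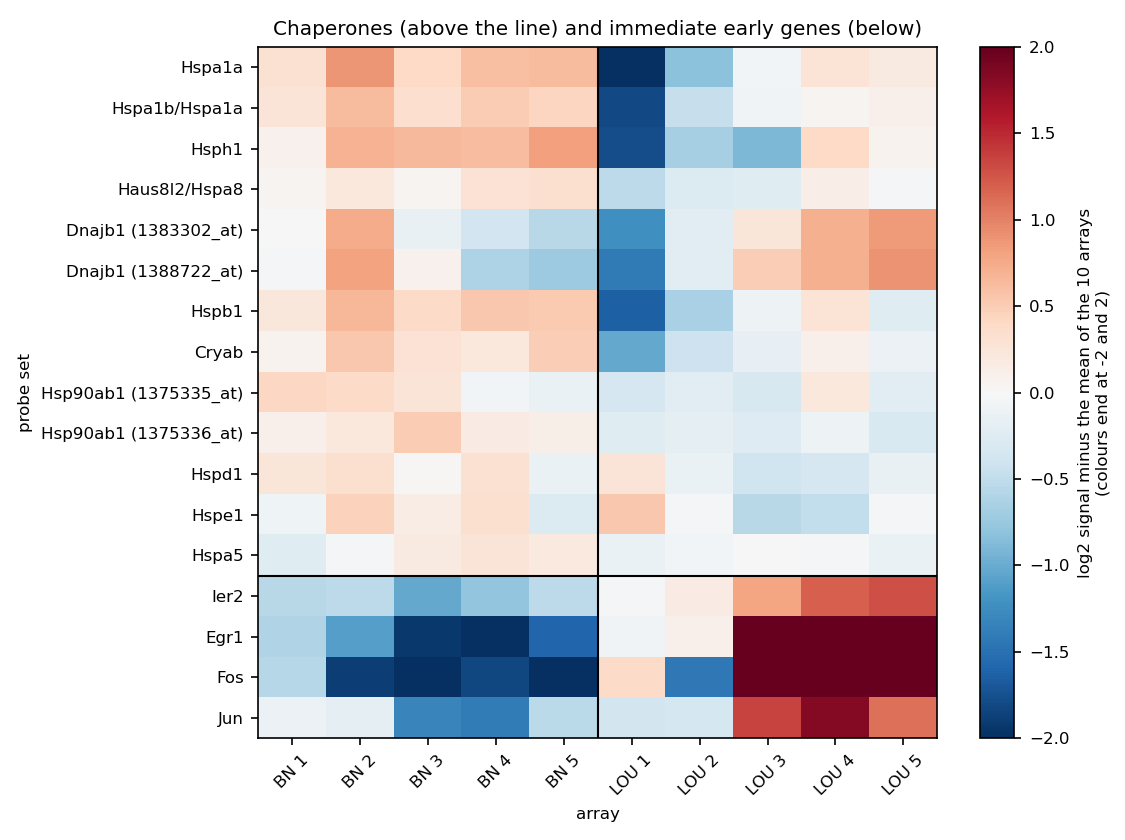
Log2 signal of each chaperone probe set (above) and of Ier2, Egr1, Fos and Jun (below) on each array, minus the mean of the 10 arrays, with colours ending at ±2. LOU array 1 is low for Hspa1a, Hsph1, Hspb1 and Cryab and high for Hspe1, and Egr1 is higher on every LOU array than on any BN array.

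After each strain was centred on its own mean, signals were compared over the 10 arrays. Hspa1a, Hspb1, Cryab, Hsph1, Dnajb1 and the shared Hspa8 probe set went up and down together. For some pairs this rested largely on a few extreme arrays. These correlations describe 10 arrays that share labelling and scaling. Hspa1a followed Hspb1 with Pearson r = 0.98 and Spearman rho = 0.98, and with r = 0.91 when LOU arrays 1 and 4, the arrays farthest from the median, were left out. It followed Cryab with r = 0.95, rho = 0.90 and 0.81 without those arrays, and Hsph1 with r = 0.87, rho = 0.79 and 0.54. Dnajb1 probe set 1383302_at followed Hspa1a with r = 0.87 and rho = 0.68 (r = 0.81 without BN array 2 and LOU array 1, the arrays farthest from its own median), while its strain means lay close together. Hspb1 and Hsph1 had r = 0.86, which fell to 0.36 without LOU arrays 1 and 4. Dnajb1 probe set 1388722_at and Hsph1 had r = 0.67, which fell to 0.40 without BN array 2 and LOU array 1. The probe set shared by Haus8l2 and Hspa8 followed Hsph1 with r = 0.94, rho = 0.89 and 0.79 without LOU arrays 1 and 4. With Hspa1a it had r = 0.85, rho = 0.88 and 0.61 without those arrays. With Dnajb1 probe set 1388722_at it had r = 0.55, which fell to 0.22 without BN array 2 and LOU array 1.

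The mitochondrial genes formed a pair of their own. Hspd1 and Hspe1, which share a promoter region, correlated with r = 0.90 and rho = 0.92, and with r = 0.78 without the 2 farthest arrays. Summed brown adipocyte markers were 13893.1, 18816.5, 7053.3, 7775.5 and 1967.1 in BN arrays 1 to 5. In LOU they were 10224.3, 4795.9, 1600.0, 1200.2 and 5414.8. As for both genes, BN array 2 was highest and array 5 lowest in BN, and LOU array 1 highest in LOU. The lowest LOU array was array 4 for the markers and array 3 for both genes. The part of brown fat in the mitochondrial chaperone signals was not tested. Hspa1a and Hspd1 had r = −0.68, which was −0.15 without LOU arrays 1 and 4 and so rests on them. Hspa5, the endoplasmic reticulum chaperone, and Hspa1a had r = 0.19 and rho = 0.24.

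Of 7369 genes above background on all arrays, the nearest to Hspa1a by this measure was Hspb1 itself. Edc4, a scaffold of mRNA decapping, came next with r = 0.96, rho = 0.94 and 0.84 without LOU arrays 1 and 4. Lsm4, an RNA-binding subunit of splicing and decay complexes, followed with r = 0.96, rho = 0.94 and 0.82. Neither had a strain difference near that of Hspa1a, with log2 values of −0.19 and 0.08. For Cryab the nearest were Ncam1, a cell adhesion molecule, with r = 0.99, rho = 0.96 and 0.98 without LOU arrays 1 and 4, and Plod3, a collagen lysyl hydroxylase, with r = 0.97, rho = 0.93 and 0.88. Hspb1 followed with r = 0.96, rho = 0.83 and 0.83. These are the highest r values among 7369 genes over only 10 arrays, and such a search can give high values by selection alone. The rho values and those without LOU arrays 1 and 4 come from the same arrays and are not separate support.

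Around the 10 genes, 9 lists of other chaperones and stress genes held 121 probe sets for 100 genes. None of these probe sets passed the limma test after adjustment in either direction. At an unadjusted p under 0.05, 18 of the 121 were higher in BN, or 14.9%, and 4 were lower, where the shares of all probe sets were 5.16% and 8.09%. All BN arrays lay above all LOU arrays for 7 of the 121, or 5.79%, and below for 1, where 1.41% of all probe sets had all BN arrays above and 2.77% had all BN arrays below all LOU arrays. The log2 difference of the brightest probe set was above 0 for 65 of the 100 genes, with a median of 0.08. Of all probe sets, bright or dim, 46.5% were above 0. Among the 794 with a mean signal of at least 1000, 54.4% were above 0, with a median of 0.04. None of the lists was tested as a group. In each list, the genes named here are the 2 with the smallest p on any of their probe sets, while medians and counts of genes use the brightest probe set.

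Of 19 measured co-chaperones of HSP70 and HSP90, 18 had a difference above 0, with a median of 0.22. Stip1, which bridges HSP70 and HSP90, had signals of 587.3 to 834.1 in BN and 401.3 to 556.3 in LOU, without overlap. Its log2 difference was 0.59, with a limma adjusted p of 0.0924. Ahsa1, the activator of the HSP90 ATPase, had signals of 505.7 to 716.6 in BN and 366.2 to 490.7 in LOU, a difference of 0.54 with a limma adjusted p of 0.126. The list of heat shock transcription factors, which holds the factor genes Hsf1, Hsf2 and Hsf4 and the binding protein gene Hsbp1, had all 4 genes above 0, with a median of 0.35. Hsf1, the main activator of heat shock genes, had means of 196 ± 22.7 and 154 ± 14.0, a difference of 0.35 with a limma adjusted p of 0.267, and its strains did not overlap, by 168.1 against 167.7 at the nearest arrays. Hsf4, a heat shock factor best known from the lens, had the same difference of 0.35.

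The cytosolic chaperonin TRiC and its partner prefoldin had 11 of 13 genes above 0, with a median of 0.12. Cct3, a TRiC subunit, had means of 759 ± 64.7 in BN and 525 ± 69.7 in LOU without overlap, a log2 difference of 0.54 with a limma adjusted p of 0.102. Pfdn6, a prefoldin subunit, had a difference of −0.32, which was −0.18 without LOU array 1. Mitochondrial chaperones and proteases had 9 of 10 genes above 0, with a median of 0.14, among them the matrix protease subunit Clpp at 0.58 and, as the exception, the inner membrane protease Yme1l1 at −0.34, or −0.205 without BN array 2.

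J-domain proteins were divided, with 10 of 19 genes above 0 and a median of 0.01. Dnaja4 had means of 547 ± 84.6 in BN and 363 ± 76.6 in LOU without overlap, a log2 difference of 0.61, and Dnajb2 one of 0.51, with limma adjusted p of 0.177 and 0.169. Small heat shock proteins had 4 of 6 genes above 0, with a median of 0.39. Hspb7 had a difference of 0.49. The dimmer of the 2 Hspb8 probe sets, which has the smaller p, gave 0.59 and the brighter 0.52. The other HSP70 and HSP110 genes had 2 of 6 above 0. Among them Hspa12a, a distant HSP70 relative, had a difference of 1.28, with a limma adjusted p of 0.196. BN array 3 was at 255.4 and the other BN arrays at 53.8 to 86.3, and the difference was 0.91 without BN array 3. In LOU the Hspa12a signals were low, at 26.2 to 53.6, and above background on 4 of the 5 arrays. Hspa4, an HSP110 relative, had a difference of −0.39. The other HSP90 genes, Hsp90b1 of the endoplasmic reticulum and Trap1 of mitochondria, had differences of 0.16 and 0.08. The Hsp90b1 difference was 0.09 without BN array 1 and 0.26 without BN array 3 and LOU array 1, and the sign of the Trap1 difference turned without BN array 2 or LOU array 3.

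Chaperones of the endoplasmic reticulum and genes of the unfolded protein response had 7 of 23 genes above 0 and 16 below, with a median of −0.10, where 46.5% of all probe sets were above 0 and their median was −0.03. Eif2ak3, which encodes the stress sensor PERK, had means of 60.3 in BN and 98.0 in LOU, a log2 difference of −0.70 with a limma adjusted p of 0.137. Serpinh1, the collagen chaperone HSP47, had means of 2446 ± 244 and 3146 ± 377, a difference of −0.36 with a limma adjusted p of 0.255. The fibroblast marker sums above were also higher in LOU, and their part was not tested.

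**Figure D4:**
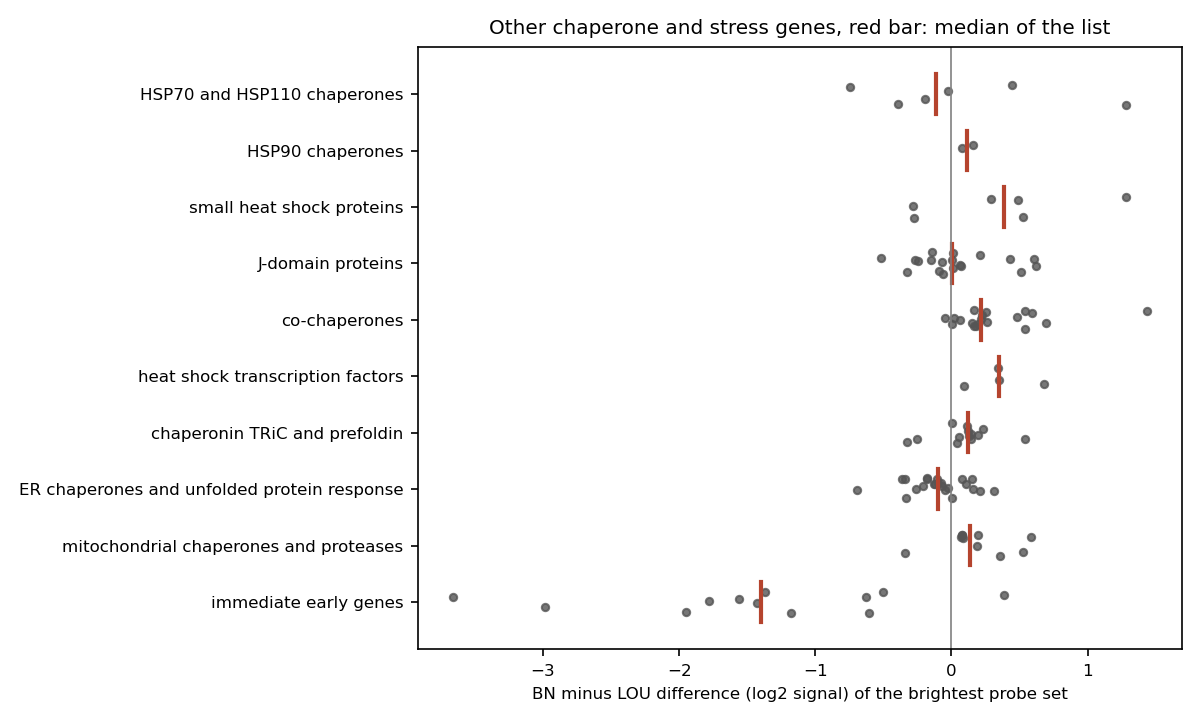
Log2 difference, BN minus LOU, of the brightest probe set of each gene in the lists of other chaperones and stress genes, with the list median as a red bar. The co-chaperone list has 18 of 19 genes above 0, and the immediate early genes have 11 of 12 below 0 with a median of −1.40.

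Immediate early genes, which are transcribed within minutes of many stimuli, were followed as a further group of rapidly induced genes. They lay on the side opposite to most chaperones: 11 of 12 measured genes had a difference below 0, with a median of −1.40, and 0 of 16 probe sets passed the limma test after adjustment, with 11 at an unadjusted p under 0.05, all lower in BN, where 8.09% of all probe sets were lower at that level. Egr1, an early growth response factor, had signals of 741.1, 523.1, 294.4, 232.4 and 374.3 in BN and of 1069.6, 1196.5, 5176.6, 8312.2 and 5663.8 in LOU. All LOU arrays lay above all BN arrays, and LOU arrays 1 and 2 lay well below LOU arrays 3 to 5. The log2 difference was −2.99, with a limma adjusted p of 0.0624. Ier2 had means of 90.1 ± 12.8 in BN and 246 ± 95.1 in LOU, a difference of −1.37 with a limma adjusted p of 0.0522. LOU array 1, the lowest for Hspa1a, was the lowest LOU array for Egr1 and Ier2 too. Fos, chosen for display with Jun after its values were seen, had signals of 25.1 to 102.9 in BN and 57.0 to 2692.7 in LOU, with LOU array 2 lowest.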

How the data were processed

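The deposited table gives 1 intensity per probe set and array, on a linear scale from 0 to 22219.9. The submitters' processing notes name RMA, with no version, as the method of the authors. RMA yields log2 values, whereas each array's deposited intensity has a 2% trimmed mean near 200.05, so the values were treated as linear signals scaled to 1 mean. Under such scaling a few very strong transcripts can slightly lower all other signals of an array. Since the test was designed for log2 values, signals were log2-transformed first, and the 4 signals of 0 were replaced by 0.1. The genome build and probe annotation behind the table are not given in the sources used here.

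Strains were compared with limma (version 3.58.1, R 4.3.3) by lmFit and eBayes, two-sided, with strain as the only term, over 15866 probe sets after removal of 57 controls. P-values were adjusted over all of these by Benjamini-Hochberg. An array's background level was set at the 95th percentile of its 45 bacterial controls and lay between 21.2 and 49.2. Precision is limited by having 5 arrays per strain. Symbols came from the platform annotation, updated through the RefSeq gene table: 12783 probe sets had 1 symbol (12748 matched by gene identifier, 2 by accession, 33 kept as listed), 312 had several and 2771 had none. Counts of genes and medians of a list use each gene's brightest probe set. Promoter searches and correlations used Python 3.11.15 with pandas 2.3.3, scipy 1.17.1 and numpy 2.4.6. The fit was tested on simulated data.

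The 10 genes and all lists were chosen with earlier results of these data known. Named genes are all 10 members, in each list every gene past the test or else the 2 with the smallest p on any probe set, and the 3 genes closest to Hspa1a and to Cryab within strains. Alternatives covered the scaling (median centring, quantiles), dim signals (a pseudocount of 16, or no probe sets from the dimmest 40%), the model (variance trend, weighted arrays, replicate block) and the arrays used (each left out in turn, or BN array 3 with LOU array 1). Replicate numbers did not pair the arrays, with correlations of −0.045 to 0.015 between same-numbered arrays.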

Additional observations from a re-analysis of the deposited data

Results flagged for a closer look

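Of 26 groups of 5 arrays checked, 2 strains for each of 13 chaperone probe sets, 3 had 1 array far from the others, by a gap over the whole range above 0.71. Chance alone gives about 1 in 20 groups. Hsp90ab1 probe set 1375335_at was highest on LOU array 4, at 2791.2, with a gap of 0.75 of the range. Hsp90ab1 probe set 1375336_at was highest on BN array 3, at 3861.3, with a gap of 0.75 of the range. Hsph1 was lowest among BN arrays on array 1, at 1339.2, with a gap of 0.72 of the range. LOU array 1, the lowest of all on 9 of the 13 probe sets, did not pass this limit on any of them.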

How the results depend on the processing

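No chaperone probe set passed the adjusted limma test under any of the 18 alternatives, and the median difference over the 11 stayed between 0.28 and 0.44. The count of the 11 with all BN above all LOU arrays was 2 to 6 when single arrays were left out. The count over all probe sets, 125, became 253 without the dimmest 40% of probe sets, 204 with a pseudocount of 16, 242 with a variance trend and 75 without BN array 3 and LOU array 1, and 63 to 127 with single arrays left out. With the replicate block it was 23, although no same-numbered pair of arrays was mutually the best match. This block changed no call of a chaperone. For Dnajb1, leaving out single arrays gave −0.46 to 0.055 (1383302_at) and −0.56 to 0.014 (1388722_at), and for Trap1 −0.049 to 0.21. Of 592 values over 33 named probe sets, 573 kept their direction and side of the threshold, 5 changed sign and 14 passed the threshold, for Cct3, Stip1, Ahsa1, Ier2 and Egr1; the cause was not tested.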
